A study of Mus musculus with 6 samples.

Results

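Of the 7645 autosomal gene regions with 6 to 59 measured positions, 324 (4.24%) held both unmethylated and highly methylated cytosines. A gene region is a stretch of 3000 bp keyed to a transcript in the deposited table, which has 10755 of them. The members were chosen on the mean methylation level of each position over all 6 samples. Positions at 10% or more whose neighbours within 30 bp had a median under 10% were first dropped as stand-alone positions. A region was kept if at least 3 of the remaining positions stood at 60% or more (high), at least 3 at 10% or less (low) and the mean was under 70%. The levels that chose the regions are given below as a description and without a test. The members held 9629 positions, of which 2123 were stand-alone and 7506 remained, 1225 of them high, 1085 intermediate and 5196 low. A gene symbol was found for 321 members. These values come from reduced representation bisulfite sequencing (RRBS) of quadriceps DNA from C57BL/6 mice, with 3 samples from mice trained for 4 weeks on a treadmill and 3 from sedentary controls. In the exercised mice the muscle DNA was from 3 hours after the final run. Nothing in the labels used here gives the age or sex of the mice or says that samples are separate animals, so p-values measure the spread between samples. Whole quadriceps holds several cell types, and an intermediate level can be a mix of methylated and unmethylated cells.

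In mammalian promoters a CpG island is a dense run of CpG dinucleotides that is usually free of methylation in all tissues, while the CpGs around it are mostly methylated. The passage from the unmethylated to the methylated stretch is often called a shore, and it is one of the places where tissues are known to differ. RRBS reads DNA at the ends of fragments made by restriction enzymes. MspI cuts within CCGG whether or not the CpG is methylated, and TaqI cuts within TCGA. The cut ends are filled in with nucleotides in the tube before adapters are joined, so a cytosine added there does not carry the methylation of the cell.

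The sequences that follow show where the high levels lie. They are stretches upstream of the gene start in 7 members, 5′ to 3′ along the gene, from the RefSeq promoter table (GRCm38.p6), with CCGG and TCGA in capitals. Ptprs and Insig2 are on the minus strand and the others on the plus strand. Measured positions were placed on them by the spacing of CpGs and not by coordinates, since the deposited table is in mm9.
Ccdc137: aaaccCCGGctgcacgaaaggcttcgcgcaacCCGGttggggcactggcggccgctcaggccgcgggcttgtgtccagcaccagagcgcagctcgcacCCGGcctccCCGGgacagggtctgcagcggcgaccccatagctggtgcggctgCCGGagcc
Ptprs: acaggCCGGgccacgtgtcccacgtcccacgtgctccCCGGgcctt
Glud1: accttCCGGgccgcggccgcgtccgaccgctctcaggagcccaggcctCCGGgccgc
Insig2: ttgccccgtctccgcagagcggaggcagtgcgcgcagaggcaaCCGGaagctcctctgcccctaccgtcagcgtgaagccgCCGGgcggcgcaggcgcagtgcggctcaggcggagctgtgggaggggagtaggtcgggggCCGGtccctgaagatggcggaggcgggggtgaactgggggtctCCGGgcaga
Parg: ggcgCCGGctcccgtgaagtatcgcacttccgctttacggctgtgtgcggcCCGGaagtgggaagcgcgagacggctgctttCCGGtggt
Dusp2: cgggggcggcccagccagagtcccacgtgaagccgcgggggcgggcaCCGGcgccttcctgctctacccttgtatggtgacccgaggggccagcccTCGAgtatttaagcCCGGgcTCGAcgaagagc
Slc19a1: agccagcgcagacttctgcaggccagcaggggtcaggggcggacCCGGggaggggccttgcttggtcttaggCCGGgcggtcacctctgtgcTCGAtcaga
The stretches lie at chr11:120457883-120458041 (Ccdc137), chr17:56476588-56476633 (Ptprs), chr14:34310498-34310554 (Glud1), chr1:121327697-121327889 (Insig2), chr14:32201881-32201970 (Parg), chr2:127336027-127336154 (Dusp2) and chr10:77032635-77032735 (Slc19a1). Slc19a1, the reduced folate carrier, was added after its values were seen, because its remaining high positions lie upstream of the start.

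In these promoters nearly every measured CpG outside CCGG and TCGA was unmethylated. In Ccdc137, the 14 positions in other CpGs stood between 0.242% and 2.46%, and the 6 positions in CCGG between 14.2% and 99.7%. In Glud1, which encodes mitochondrial glutamate dehydrogenase, 12 other positions stood at most at 1.80%, and the 4 in CCGG at 14.7%, 97.0%, 92.9% and 11.1%. In Ptprs, which encodes a receptor tyrosine phosphatase, the CCGG positions 147, 146, 115 and 114 bases before the start stood at 13.6%, 99.8%, 99.5% and 12.7%, with all 6 positions between them at or below 8.99%. So within 1 CCGG the base that faced the measured stretch was near 100%, and the base that faced away was low. In Dusp2, which encodes a MAP kinase phosphatase, the position 14 bases before the start stood at 99.3% (lowest sample 95.7%), and it lies in TCGA, not in CCGG. In Parg, which encodes poly(ADP-ribose) glycohydrolase, the position 84 bases before the start stood at 100% in all 6 samples, and the next position, 6 bases on, stood at 1.38%. All these high positions were stand-alone by the rule and did not count towards membership. In Slc19a1 the same was seen in positions that did count. There, levels of 99.6% (CCGG, 31 bases before the start) and 98.9% (TCGA, 10 bases before) stood beside 15% at the other base of that TCGA.

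**Figure D1:**
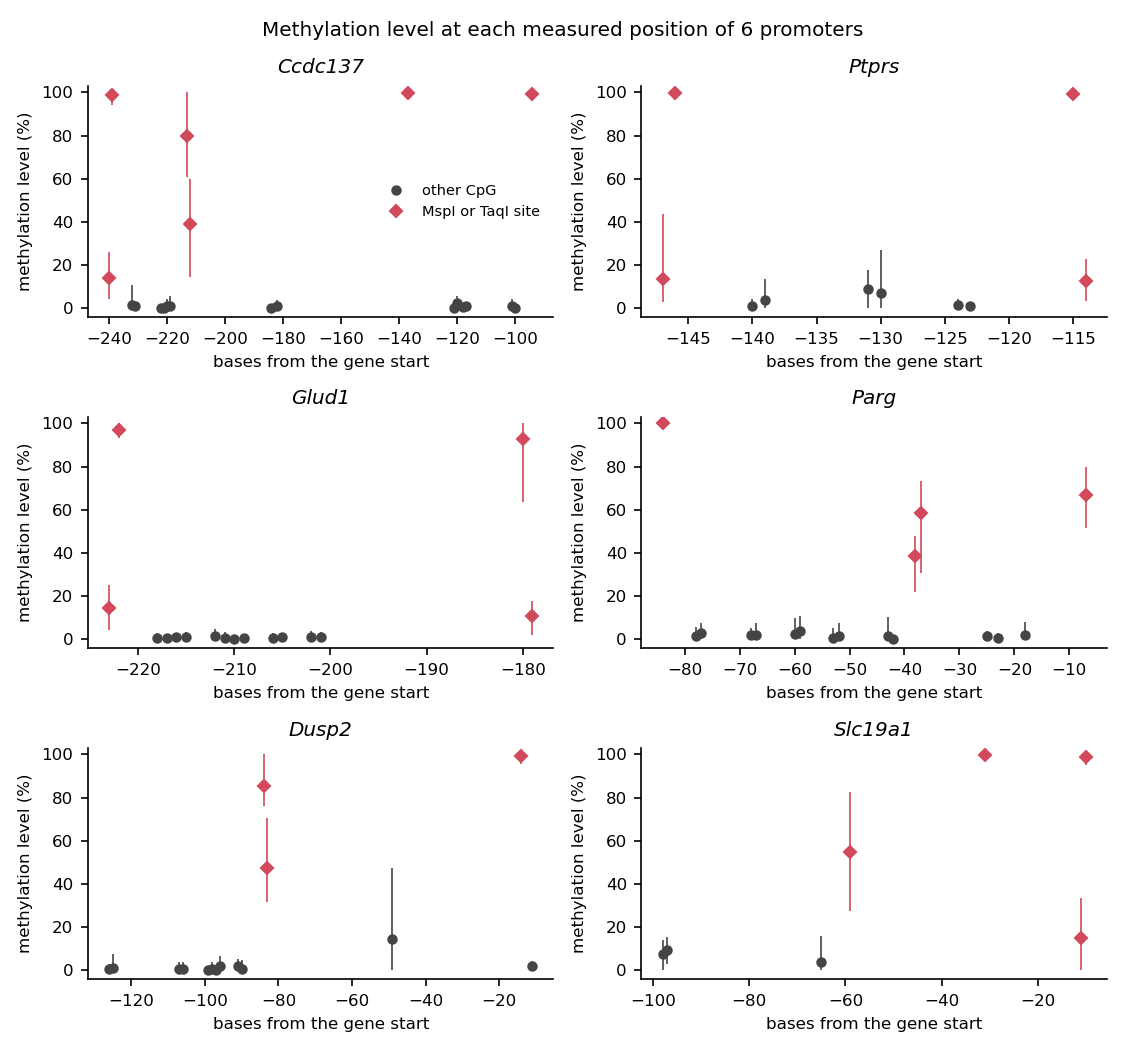
Methylation level (%, y) against distance from the gene start (bases, x) at each measured position upstream of the start in 6 of the 7 promoters (Insig2 is not drawn). Points are means of 6 samples and vertical lines run from the lowest to the highest sample. Diamonds (positions in MspI or TaqI sites) have a highest level of 97.0% to 100% in each panel, while circles (other CpGs) stay at or below 14.7%.

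The data went against the name methylation boundary for most of these regions, so they are described here by the rule that chose them. In 104 members every measured position in the promoter window, from 250 bases before to 50 after the start, fell on a CpG. Of their 1111 placed positions, 68 were high ones that had counted towards membership, and all 68 lay in CCGG (60) or TCGA (8). Of the 696 low ones, 13 (1.87%) did. The 120 remaining positions in CCGG or TCGA had a mean of 59.6%, and the 713 in other CpGs a mean of 2.81%, none of them high. Among stand-alone positions, 150 of 150 high ones were in CCGG or TCGA. The 68 lay in 39 members. Of the 68 positions, 12 had methylated neighbours (a median of at least 50%) and 21 had no measured neighbour. CCGG was looked for by plan, and TCGA after the levels in Dusp2 had been seen.

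All 10 classes of bases around a CpG, with both strands pooled, were then compared. In the members the mean was 65.5% at TCGA (37 positions in 19 regions) and 62.2% at CCGG (355 positions in 97 regions). In the other 8 classes it ran from 2.09% (ACGG) to 3.89% (CCGA). The palindromes ACGT (3.33%) and GCGC (2.33%) were as low as the others. This was not particular to the members, since over all placed regions the means were 61.6% at TCGA, 61.2% at CCGG and 2.22% to 3.50% elsewhere. Among 85 sites of the members with measured positions on 1 side only, the base next to those positions had a median of 98.3% and the base facing away 19.2%. The near base was higher in 81 of the 85 (95.3%), and in 97.4% of 1658 such sites in the other eligible regions. CCGG was present in 91.1% of the members' promoters, in 88.1% of those of the other eligible regions and in 52.8% of all RefSeq promoters of the same length. TCGA was present in 28.0%, 30.6% and 22.0%. The part that the filling in of fragment ends plays in these levels was not tested.

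**Figure D2:**
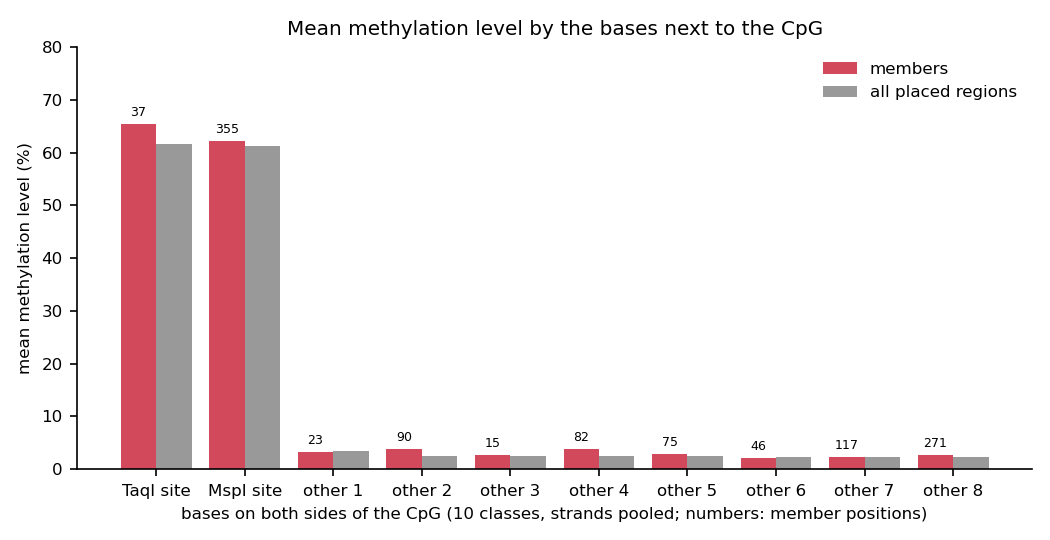
Mean methylation level (%, y) of positions placed on promoter sequence, by the bases on both sides of the CpG (x, 10 classes), in members (red, number of positions above the bar) and in all placed regions (grey). The MspI class (CCGG) and the TaqI class (TCGA) stand above 60% and every other class under 4%.

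Most high positions lay outside the promoter window, where no sequence was at hand, so 2 other measures were read on all of them. The first was the neighbours. Of the 1225 high positions, 332 (27.1%) had no other measured position within 30 bp, 496 (40.5%) had neighbours with a median under 50% and 397 (32.4%) had neighbours at 50% or more. The second was the pair of bases of a CpG, which lie on opposite strands and are normally methylated together. In 541 pairs of the members with a high base (no stand-alone base), the higher base had a median of 97.4% and the lower one of 27.5%. The 2 bases differed by at least 50 points in 343 pairs (63.4%) and were both high in 105. With stand-alone bases kept, the bases differed by that much in 67.0% of 1267 pairs of the members and in 73.5% of 16702 pairs of the other eligible regions.

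A smaller set of members held stretches in which neighbouring CpGs were methylated as well. In 59 members at least 3 high positions had methylated neighbours, in 89 members 1 or 2 had, and in 176 none. In the 59, the bases of a pair differed by at least 50 points in 33% of 100 pairs and were both high in 53%, against 70.3% and 11.8% in the other members. This split was made after the values were seen and uses the same levels, so it is a description. Within the promoter windows, methylated neighbours did not set a position apart from CCGG and TCGA. The 12 placed high positions with such neighbours, in 7 members, all lay in CCGG or TCGA. Most of the 397 high positions with such neighbours were not placed on sequence, so their sites are not known. A strand was known for 48 of the 59. The high positions with methylated neighbours lay upstream of the start in 29, downstream in 15 and on both sides in 4. Those on both sides need not form 1 stretch, and in Limd2 the low positions lay between them. The nearest such position was at a median of 819.5 bp from the start, with members on both sides counted as at the start.

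Distances below are in bp from the gene start, negative upstream. Means over positions weight each position equally, while levels by sample are shares of summed reads, so a mean can lie outside the levels by sample. Of the 59 members, Ssr3 had the most high positions. It encodes a subunit of the translocon-associated protein complex of the endoplasmic reticulum. Its 15 high positions had a mean of 87.4% and lay in clusters from -1489 to -1454 bp and from -884 to -853 bp. No position was measured between -1454 and -885 bp. The 10 low ones lay from 222 to 246 bp with a mean of 1.61%. The high positions stood at 92.1%, 85.6% and 80.4% in exercised samples 1 to 3 and at 84.3%, 84.5% and 89.8% in sedentary samples 1 to 3. The groups overlapped, and no sample was low. In Tapbp, the gene of tapasin, which loads peptides onto MHC class I, 13 positions were high (mean 95.0%). Of these, 12 with methylated neighbours lay in clusters from -1873 to -1762 bp and from -926 to -872 bp. No position was measured between -1762 and -927 bp. The levels of the high positions were 94.9%, 85.6% and 91.1% in exercised and 94.8%, 93.4% and 92.6% in sedentary samples, which overlapped. In Atg14, which encodes a subunit of the autophagy PI3-kinase complex, 9 positions from -1054 to -1019 bp had a mean of 77.2%, and 9 from 182 to 220 bp a mean of 2.44%. Among the high positions of Atg14, or next to them, lay 5 intermediate ones with a mean of 51.8%. The 2 bases of a CpG stood close together in some CpGs of the Atg14 stretch (76.4% and 74.3%, or 68.3% and 67.6%) and far apart at its ends (99.7% and 42.1%, or 68.8% and 99.2%).

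Dazl and Igf2 are genes in which DNA methylation is well studied. In Dazl, which encodes a germ cell RNA-binding protein and is silent in the body's other cells, 5 positions from 122 to 158 bp had a mean of 87.4%, and 22 positions from 649 to 721 bp a mean of 1.01%. Its high positions stood at 87.5%, 93.2% and 91.1% in exercised and at 93.5%, 84.3% and 75.6% in sedentary samples, so the groups overlapped and sedentary sample 3 was lowest. In Igf2, the imprinted growth factor gene that is expressed from the paternal copy, 4 high positions from 139 to 197 bp had a mean of 87.9%. The 2 intermediate ones, at 56.3% and 58.3%, were each the other base of a CpG whose high base stood at 99.6% and 96.6%. The pair between them stood at 78.3% and 77.3%. Whether these levels bear on imprinting was not tested. The 16 low ones lay from -1929 to -921 bp with a mean of 2.41%. The high positions of Igf2 stood at 75.7%, 80.7% and 85.2% in exercised and at 89.9%, 83.1% and 89.3% in sedentary samples, and the groups overlapped, with exercised sample 1 lowest. In Zfp598, which encodes a ubiquitin ligase that acts on collided ribosomes, 5 positions from -872 to -837 bp had a mean of 94.8%, and 40 low ones from -111 to 353 bp a mean of 1.66%. All 6 samples stood between 92.5% and 97.6% in the high positions of Zfp598.

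**Figure D3:**
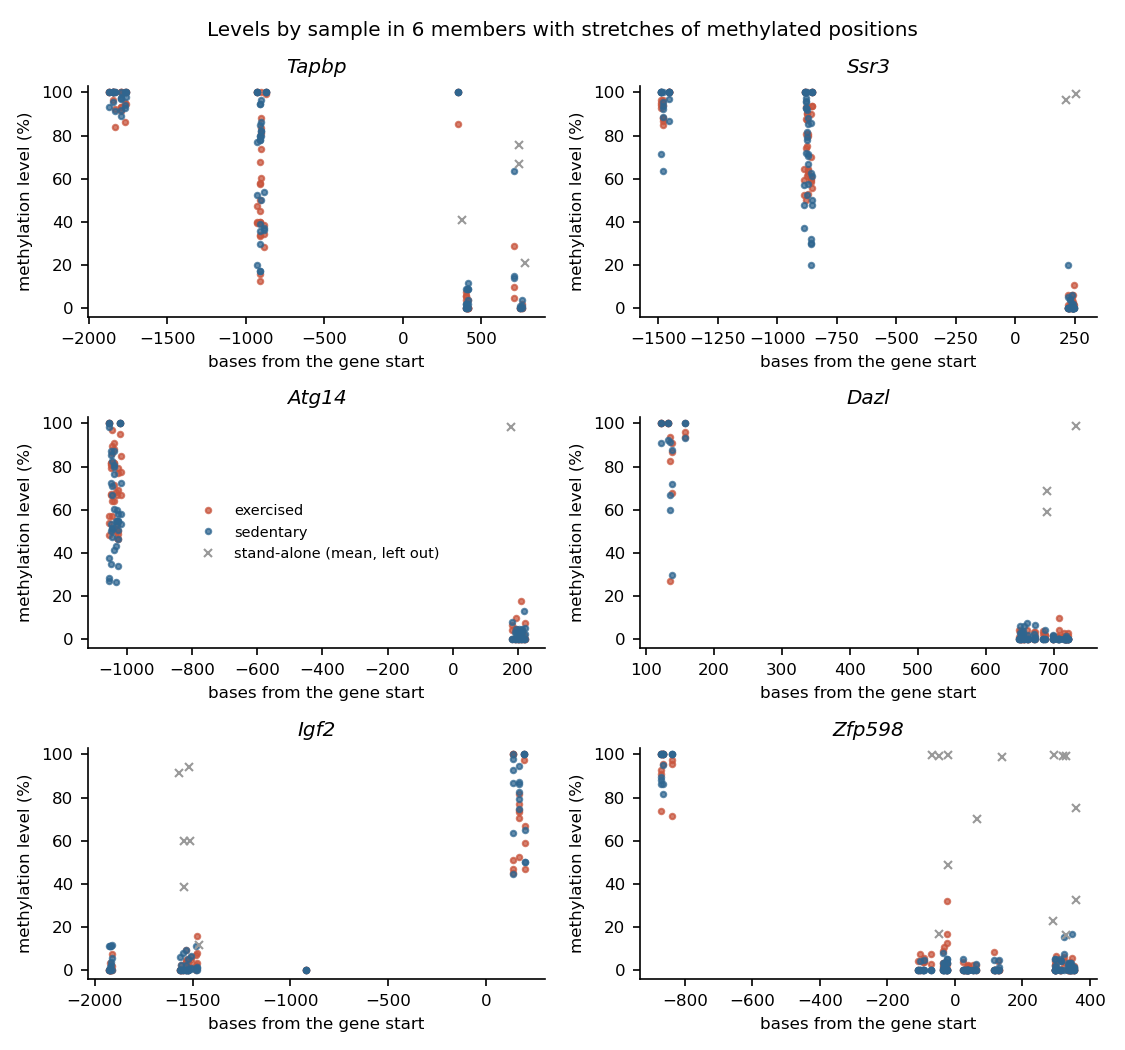
Methylation level (%, y) of each remaining position in each sample (red exercised, blue sedentary) against distance from the gene start (bases, x) in 6 members, with the means of stand-alone positions as grey crosses. The upstream clusters of Tapbp, Ssr3, Atg14 and Zfp598 and the clusters just after the start of Dazl and Igf2 stand well above the low positions, with a wide spread at single positions, and the samples of both groups lie among each other.

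The order of high and low positions along the region was mostly not that of a single border. 74 members (22.8%) passed a single time between low and high, 52 (16.0%) passed 2 times and 198 (61.1%) 3 or more times, up to 7. Of the 74, the high side was upstream in 41 and downstream in 19, and 14 had no known strand. The smallest gap between a low and a high position had a median of 15.5 bp (1 to 2564 bp). It was 10 bp or less in 124 members and over 500 bp in 43. In the 74 members with a single switch the median gap was 528.5 bp, so the place of the change was not resolved there. In 33 of them at least 3 high positions had methylated neighbours.

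The members with the largest step between high and low positions were Dusp2, Helz, Tesc, Aldh5a1 and Gid4. Helz encodes an RNA helicase, Aldh5a1 the succinate semialdehyde dehydrogenase of GABA breakdown, and Gid4 a substrate receptor of a ubiquitin ligase. Their steps ran from 97.5 to 98.0 points, and of their 3 or 4 high positions at most 1 had methylated neighbours. The smallest gap, 1 bp, was found in 5730507C01Rik, Cd81, Frem2, Insig2 and Lhx6. Cd81 encodes a tetraspanin of the cell surface and Insig2 a protein that holds back sterol-driven transcription. In these members the change lay between the 2 bases of a CpG. In Insig2 the high positions stood at 97.4% to 100% and the low ones at 0.466% to 3.82% over the 6 samples.

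Among the remaining positions the share of high ones fell towards the gene start. The rule had dropped high positions that lay among low neighbours, so the fall can follow in part from the rule. How large that part is was not tested. The start was placed 2000 bp into each region because 1576 of 2474 regions with enough positions (63.7%) fitted their promoter sequence there, and 257 members had a strand. All 257 were given distances, also where the fit failed or could not be read. Of 148 members with at least 3 positions in the promoter window, 104 had all of them on a CpG. From -2000 to -1750 bp, 65.5% of 55 positions were high. From the start to 250 bp downstream, 9.12% of 1732 were high and 81.4% low. The share rose again to 25% between 750 and 1000 bp. Of the low positions 76.0% lay within 500 bp of the start, and of the high ones 49.1%, with 30.5% of the high ones farther upstream.

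**Figure D4:**
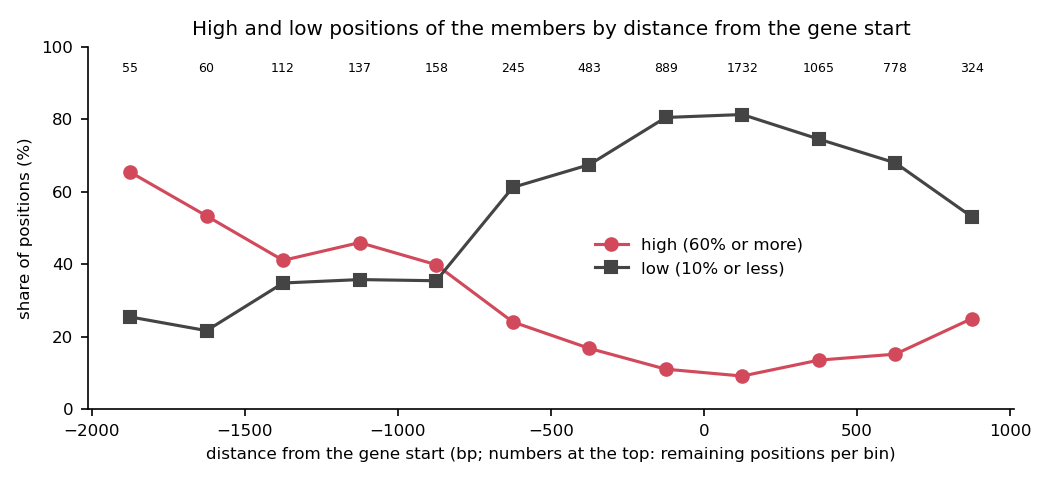
Share of remaining positions of the members that were high or low (%, y) in bins of 250 bp by distance from the gene start (bp, x), with the number of positions per bin at the top. High positions make up 65.5% of the most distant upstream bin and 9.12% of the bin after the start.

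Developmental transcription factors had 16 members among 157 eligible regions (10.2%, against 4.24% of all eligible regions). Among them were Barhl2, Sox21, Irx3, Sox7, Hoxd9, Pitx1, Bhlhe41, Hoxa2, Hhex, Sox30, Pax7, Runx1, Dlx3, Lhx6 and Hlx, and none of the 16 was among the 59 members with methylated stretches. Pax7, the transcription factor of muscle satellite cells, had 3 high positions without methylated neighbours, at 78.3% to 87.3%, and 17 low ones. Irx3 had 3 high and 32 low positions, with 1 switch over a gap of 175 bp. Zinc finger genes had 10 members of 179, solute carriers 6 of 161, G protein-coupled receptors 6 of 72 and ubiquitin-system genes of the F-box, Trim and Usp families 4 of 86. Ligands and receptors of the Wnt, BMP and FGF pathways had 4 of 63, and ion channels 3 of 82.

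Genes of muscle contraction (0 of 19), mitochondrial and lipid metabolism (0 of 25), the acute response to exercise (0 of 33), ribosomal proteins (0 of 92) and the respiratory chain (0 of 42) had no member. Myogenic regulators had Pax7 and Igf2 (of 21), and glucose and insulin signalling had Pik3r1 (of 30), a regulatory subunit of PI3-kinase. Lists of markers of cells other than muscle fibres were short, with at most 18 eligible regions. Fibroblast and matrix genes had Adamts2, Twist2 and Fbn1 (of 18, 16.7%) and endothelial genes Sox7 and Fli1 (of 14, 14.3%). Nerve and Schwann cell genes had Gfra1 (of 16, 6.25%). Among all eligible regions the share of members was 4.24%. Adipocyte (0 of 3), leukocyte (0 of 4) and smooth muscle (0 of 8) genes had none. Germ cell genes had Dazl (of 25), imprinted genes Igf2 (of 23), and the genes of DNA methylation Zbtb4 (of 11), which encodes a methyl-CpG binding protein. The lists were chosen with earlier results in view, and their shares were not tested.

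The mean level of the members hardly differed between exercised and sedentary muscle. Over all 324, high positions stood at 90.6%, 91.5% and 91.1% in exercised and 91.7%, 89.4% and 90.8% in sedentary samples, with means of 91.1% ± 0.486 and 90.6% ± 1.12 (SD, n = 3 each). Intermediate positions (285 members) stood at 29.6%, 22.9% and 25.5% against 26.3%, 28.8% and 21.6%, with means of 26.0% ± 3.35 and 25.6% ± 3.61. Low positions stood at 2.13%, 3.06% and 2.55% against 2.81%, 2.18% and 2.48%, with means of 2.58% ± 0.467 and 2.49% ± 0.314. The groups overlapped in each class, and each difference was smaller than the spread between samples. At the placed CCGG and TCGA positions the means were 62.7% ± 1.17 and 62.2% ± 0.768, again with overlap.

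No member differed between the groups after adjustment. Regions were compared with edgeR's quasi-likelihood test on methylated and unmethylated reads, over all 9598 regions with at least 3 remaining positions, with Benjamini-Hochberg adjustment. At an adjusted p under 0.05 the test called 0 regions, or 0%, and so 0 members. At an unadjusted p under 0.05 it called 10 of 324 members (3.09%), against 3.64% of all regions. In 17 members (5.25%) the exercised and sedentary samples did not overlap, against 9.03% of all regions. The difference was above 0 in 169 members and below 0 in 155, with a median of 0.223 points (0.152 over all regions) and a range from -12.8 to 9.79 points. In simulated counts of the region comparison the test recovered 36% of differences of 20 points and 68% of differences of 30 points after adjustment, and limma on levels 62% and 88%. Smaller differences were not simulated. The depth was 9153526 to 18656340 calls per sample, with a median of 42.5 reads per remaining member position.

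**Figure D5:**
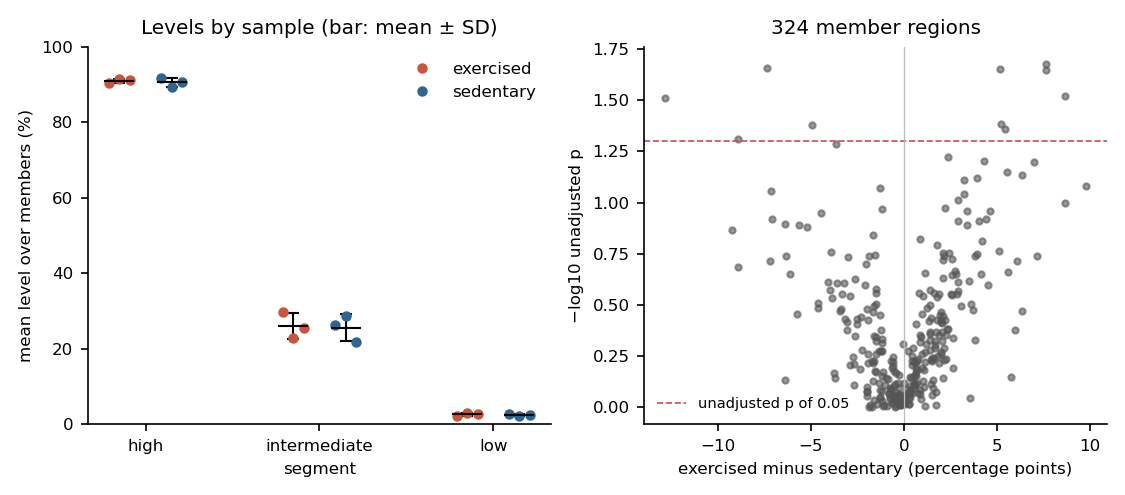
Left, mean level over members (%, y) of high, intermediate and low positions in each sample (points), with mean and SD of 3 samples per group. Right, exercised minus sedentary level (percentage points, x) against −log10 of the unadjusted p (y) for the 324 member regions. The groups overlap in all 3 classes, and 10 regions lie above the dashed line at an unadjusted p of 0.05.

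The members with the smallest p in the region test were Atp2a3, Kmt2e, Sft2d2, Nosip, Cacul1 and Frem2 on the higher side and Tprn, Sirt6, Ccdc137, Tapbp, Fam229a and Creb1 on the lower side. All 12 had an adjusted p of 0.984 in edgeR's test, and 9 of the 12 differences fell to at most 0.5 of their size when each position was weighted equally in place of by its reads. This weighting was added after the values were seen. Sirt6, a deacylase of nuclear chromatin, shows it most clearly. Its region (chromosome 10, 81089068 to 81092067, mm9, 8 remaining positions) stood at 54.1%, 38.6% and 41.0% in exercised and at 62.2%, 54.6% and 55.3% in sedentary samples, which did not overlap. With equal weights the Sirt6 values were 53.6%, 48.5% and 49.5% against 53.4%, 51.1% and 48.1%, and the difference went from -12.8 to -0.314 points. The share of the reads of Sirt6 that fell in its high positions was 47.3%, 38.6% and 40.2% in exercised and 58.5%, 54.2% and 57.2% in sedentary samples. By class, the high positions of Sirt6 differed by -0.396 points, the intermediate one by -0.712 and the low ones by 1.99. These are sums and means over positions, in which single positions that moved in opposite directions can offset each other.

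Atp2a3, the calcium pump SERCA3, went from 7.66 to 1.01 points, Frem2, a gene of the extracellular Fras complex, from 5.42 to 0.494 points, and Ccdc137 from -4.94 to -0.0992 points. Creb1, the cAMP-responsive transcription factor, changed sign, from -1.28 to 0.320 points. Leaving out 1 library also moved some summed differences by over 1.5 times. Without sedentary sample 2 that of Atp2a3 went to 4.60 points and that of Frem2 to 2.70. Without sedentary sample 1 that of Creb1 went to -0.596 points and that of Tapbp from -8.94 to -4.67, and without exercised sample 2 that of Cacul1 went from 5.20 to 3.27. The differences of Kmt2e, Tprn and Tapbp kept more than 0.5 of their size. Kmt2e, a chromatin protein of the SET domain family, stood at 23.5%, 21.3% and 21.2% in exercised and at 17.3%, 19.9% and 15.4% in sedentary samples with equal weights, and did not overlap under either weighting. Tprn, the gene of taperin, stood at 24.6%, 27.6% and 30.2% against 31.4%, 30.3% and 34.0% with equal weights, again without overlap. Over all members the median size of the difference was 1.57 points with summed reads and 0.968 with equal weights, and 119 of 324 changed sign between them. With equal weights limma called 22 of 324 members at an unadjusted p under 0.05, against 4.19% of all regions in the same fit, and none after adjustment.

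When the positions of a class were summed within each region, the high segments of 11 of 324 members (3.4%) had an unadjusted p under 0.05, against 3.13% of all 702 high segments. Of the members' high segments 24 did not overlap between groups (7.41%, against 8.55%). Pitx1, the homeobox gene of hindlimb identity, stood at 98.8%, 98.3% and 98.4% against 96.2%, 91.0% and 97.5%, without overlap (adjusted p = 0.923 in edgeR's test). None of its 6 high positions had methylated neighbours. Ctdsp2, a phosphatase of the RNA polymerase II tail, stood at 84.9%, 94.5% and 88.9% in exercised samples and at 100% in all sedentary ones, over a mean of 18.2 reads per position. Qars, the glutaminyl-tRNA synthetase gene, stood at 93.2%, 95.9% and 83.6% against 97.8%, 97.8% and 94.5%, and Tpm4, a tropomyosin gene, at 85.5%, 80.5% and 87.4% against 95.0%, 93.8% and 86.9%. The groups overlapped in both. Ptprs and Atg14 on the higher side and Epb41l1 on the lower also overlapped. Leaving out 1 library moved several of these differences by over 1.5 times. Without sedentary sample 2 that of Pitx1 went from 3.63 to 1.67 points and that of Atg14 from 8.48 to 2.88. Without sedentary sample 1 that of Ptprs went from 11.8 to 6.71. Without exercised sample 3 that of Qars went from -5.81 to -2.16, and without exercised sample 1 that of Epb41l1 from -5.61 to -0.721.

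Intermediate segments could hold a single position. Among them 10 of 285 members (3.51%) had an unadjusted p under 0.05, against 3.76% of all, and 23 (8.07%) did not overlap, against 8.50%. Glud1 had the lowest value of the difference, which rests on a single sample. Its intermediate positions stood at 2.31%, 5.84% and 2.54% in exercised and at 65.2%, 0.917% and 7.32% in sedentary samples. Without sedentary sample 1 the difference went from -20.9 to -0.552 points. Without sedentary sample 2 it went to -32.7 points and passed the adjustment (adjusted p = 0.0454 in edgeR's test, against 0.923 with all samples). Parg likewise stood at 18.4%, 16.9% and 68.0% against 16.7%, 19.4% and 13.7%, and without exercised sample 3 its difference went from 17.8 to 1.05 points. In Ocel1 the values were 15.7%, 27.1% and 26.6% against 34.9%, 35.1% and 52.4%, and in Ssr3 they were 76.1%, 57.3% and 59.1% against 42.8%, 47.6% and 45.3%. Neither overlapped, and both had an adjusted p of 0.923 in edgeR's test. In Ssr3 these 3 positions lie in or next to the cluster of high positions from -884 to -853 bp described above.

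Low segments had 22 of 324 members (6.79%) at an unadjusted p under 0.05, against 5.94% of all, and 39 (12%) without overlap, against 10.4%. Of the 22, 17 were higher in exercised samples, as were 388 of the 519 over all low segments. Of single positions 281 of 7121 (3.95%) had an unadjusted p under 0.05, against 4.75% of all 188574. With all 6 samples no segment and no position passed the adjustment. In simulated counts the segment test recovered 0% of differences of 30 or 50 points after adjustment, and limma on levels 1% and 22%. The simulated differences were rises in segments at intermediate levels, and none were simulated at high or low levels. A count of 0 segments thus says little.

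In the 74 members with a single switch the place of the change was also read in each sample, as the split of the positions with the highest binomial likelihood. The split was the same in all 6 samples in 54 members (73.0%), among them Dazl and Igf2. The 74 were chosen on the mean of these same samples, with a median gap of 528.5 bp between the sides. Agreement of the split was thus largely set in advance. 18 members had 2 different splits and 2 had 3 or more, with a median range of 141.75 bp over these. A second measure was the first crossing of 35% on a straight line between neighbouring measured positions. Over a gap, this crossing moves with the levels at the ends of the gap. By this measure 8 of the 74 members stayed within 1 bp in all samples, and the median range was 129 bp. The range was 19.3 bp in Dazl and 449 bp in Igf2. In Tapbp sedentary sample 3 split 1719.5 bp away from the other 5 samples. In no member did the splits of the exercised and sedentary samples separate, and the median shift was 0 bp by the split and -0.0669 bp by the crossing.

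In the authors' deposited table, which compares each position between the groups with an unadjusted p, 206 of 7121 remaining member positions had a p under 0.05 (2.89%), against 3.13% of all 253960 with a p. The authors' strong classes held 9 higher and 8 lower of the 7506 remaining positions. In the whole series they held 223 higher and 314 lower of 268725 positions, a similar share. Nsd1, a histone methyltransferase gene, had the largest deposited rise, 34.0 points at a position with a mean of 25.9%. Hsf4, a heat shock factor gene, had the largest deposited drop, -41.9 points at a position covered by a mean of 16.3 reads. Of the 17, 15 were intermediate positions.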

How the data were processed

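The 6 RRBS samples were 3 from exercised and 3 from sedentary mice. The authors deposited, for each position and sample, the methylated fraction and the count of reads covering it (at least 10 in every sample), and for each position a p-value and a difference of group means. The submitters' processing notes name Bismark 0.7.7 with Bowtie 0.12.9, cutadapt 1.0, Trim Galore 0.2.5 and the build mm9. The settings of each tool, the enzymes and any trimming of filled-in ends are not stated there. Per the labels' protocols, libraries followed a published RRBS procedure. Trimming of filled-in bases would bear on every level at a cut site.

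Methylated reads were taken as fraction times coverage, whole within 0.00236. Levels of regions and segments by sample are shares of reads summed over positions, so they also move with how reads are spread over positions. Means over positions, as in the steps and the classes of bases, weight each position equally. Depth per sample was 14556783, 17815556 and 16415619 calls (exercised) and 15509309, 18656340 and 9153526 (sedentary), and read counts are not known to be independent molecules. Counts were fitted over the whole table with edgeR 4.0.16 (R 4.3.3) and limma 3.58.1, with Benjamini-Hochberg adjustment. Units with fewer than 3 positions, or no methylated or no unmethylated read, were left out. Regions and segments used a dispersion of 0 with the quasi-likelihood scale, and single positions an estimated common dispersion. This was chosen on simulated data after the common dispersion had been fitted once to the real counts and had called 0 units. In simulated data the common dispersion recovered 0% of region differences of 20 or 30 points. The sizes of the simulated differences were also raised after a first run.

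Placement used windows with at least 3 positions, all on a CpG (2734 of 3985 regions, 104 of 148 members). Symbols and strands came from RefSeq tables.

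Named were 6 members per direction with the smallest p by region, 4 by high and 2 by intermediate segment, 5 with the largest step and 5 with the smallest gap, up to 3 per gene list (not all are printed, and 1 high segment is not reported here), and those at the thresholds. For the latter, the third highest position stood at 60.1% in Shc4 (inside) and 59.9% in Bpnt2 (outside), and the third lowest at 9.96% in Sbspon (inside) and 10.3% in Sfmbt2 (outside). The members and lists were chosen with earlier results of these data known. The alternatives are given in the closing section.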

Additional observations from a re-analysis of the deposited data

How the results depend on the processing

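No gene region passed the adjusted threshold under any of the 15 alternatives run. Of 350 refits of the 24 named regions and segments, 347 kept direction and side of the threshold. All 24 began far from the threshold, at an adjusted p of 0.923 or 0.984 in edgeR's test. A refit counts as kept even where the difference nearly vanished, as in Glud1 without sedentary sample 1 (-0.552 points). The count therefore does not measure how stable the differences were. With each position weighted equally (limma on levels) the region of Creb1 reversed, to a level difference of 0.0032 as a fraction. The labels' replicate numbers did not pair the samples (correlations of deviations of same-numbered samples were 0.0481, -0.197 and -0.0927), and with the replicate block 3 segments passed. One was the intermediate segment of Glud1 (adjusted p = 0.00342 in edgeR's test with the block, 0.0454 without sedentary replicate 2), whose difference rests on sedentary sample 1. Merged strands gave 1 segment, and leaving out single samples 0 to 3. Dispersion 0 called 267 of 188574 positions, and in simulated counts it called 205 of 156991 positions falsely. Members at an unadjusted p under 0.05 moved as follows, with the share of all units tested in the same fit in brackets. Regions went from 10 (3.64%) to 22 with equal weights (4.19%), to 0 with limma on M values (4.38%) and with the common dispersion (4.37%), and to between 8 and 27 without single samples (2.95% to 5.32%), with 27 without exercised sample 3 (5.32%) and 20 and 21 without sedentary samples 1 and 2 (5.24% and 4.96%). High segments went from 11 of 324 (3.13%) to 2 of 67 at a coverage of 20 (3.07%) and to 2 of 59 with methylated neighbours required (3.4%). Intermediate segments went from 10 (3.76%) to 18 and 6 with limma on levels and M values (6.11% and 5.65%), to 19 with equal weights (6.52%), to 4 with the common dispersion (3.95%), and to between 7 and 20 without single samples (2.71% to 5.29%), with 17 and 20 without sedentary samples 2 and 3 (5.29% and 4.66%). Low segments went from 22 (5.94%) to 12 with limma on levels (2.78%) and to between 14 and 29 without single samples (4.56% to 7.46%), with 14 without exercised sample 2 (4.56%). Positions went from 281 (4.75%) to 119 with the block (1.81%), 155 of 3925 at a coverage of 20 (4.89%) and 562 with dispersion 0 (6.40%). With limits of 20% and 50% the median smallest gap went from 15.5 to 6 bp. The number of members was 384 and 389 with windows of 20 and 50 bp (229 and 253 shared), 345 with low at 15%, 395 and 277 with high at 50% and 70%, and 59 with methylated neighbours required. The estimated common dispersion, dispersion 0 for positions, equal weights in the tests, TCGA and the neighbour requirement were chosen after seeing the data. The cause of these shifts was not tested, and at a coverage of 20 fewer positions were tested. In Taco1 the mean coverage of remaining positions was 1164 reads.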

Other observations

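Other members with many positions in methylated stretches were Aarsd1, Trim44, Fam189b, Camkv, Cebpzos and Kremen1. In Aarsd1, 8 positions from -1080 to -1051 bp of the gene start had a mean of 95.2%, and 7 from 12 to 65 bp a mean of 3.76%. In Trim44 the stretch lay downstream, with 8 positions from 840 to 876 bp, and 34 low positions around the start had a mean of 1.14%. In Camkv, a gene of a kinase-like protein of the nervous system, 6 positions from -1687 to -1652 bp stood at a mean of 89.6%. In Mepce, which encodes the enzyme that caps 7SK RNA, 5 high positions (97.2%) and 11 low ones (2.47%) lay 2564 bp apart, the widest gap of all members. Zc3h13, a gene of the RNA methylation machinery, had a single switch over a gap of 2 bp, as did Kmt2e. In Zc3h13, 3 high positions from 115 to 142 bp (68.2%) were followed by low ones from 144 bp on (1.21%).

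Of the 59 members with such stretches, 33 had a single switch, 9 a pair of switches and 17 at least 3, and the median smallest gap was 104 bp. At an unadjusted p under 0.05 in edgeR's test there were 4 of the 59 by region and 3 by high segment, against 3.64% of all regions and 3.13% of all high segments, a description of a set chosen on the same levels. 9 members overlapped another deposited region, and no position was listed for more than 1 region.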
